A study of Drosophila melanogaster with 3 samples.

Results

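The RR-consensus cuticle protein genes of Drosophila melanogaster were described in chromatin immunoprecipitation and sequencing (ChIP-seq) of GFP-tagged PHDP. Members were the protein-coding genes whose symbol is Cpr followed by a digit, 70 of the 13945 protein-coding genes on the 6 chromosome arms. The cytochrome P450 reductase gene, named Cpr alone, was left out. Chromatin came from whole embryos 10 to 24 hours old, of a transgenic line that stably expressed PHDP with GFP fused to its C terminus, and was precipitated with an antibody against GFP. There were 3 biological replicates of this 1 group and no contrasting group. Whole embryos mix many cell types, so a peak in few cells and a weak peak in many cannot be told apart, and signal of the antibody unrelated to PHDP cannot be told apart from that of PHDP. The proteins were not inspected here, so the shared domain rests on the gene names.

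Proteins with the Rebers-Riddiford (RR) consensus bind chitin and are structural components of the insect cuticle, which the epidermis and other ectodermal epithelia secrete in the later part of embryogenesis and again before each moult. Their genes are mostly short and lie in tandem groups, named after the cytological band and a letter. Their transcription is known to follow pulses of ecdysone through nuclear receptors and other regulators. PHDP is a transcription factor with a homeodomain of the paired-like class, a fold that recognises AT-rich DNA with a TAAT core.

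The reproducible peak list of the deposited data, selected by irreproducible discovery rate (IDR), holds 7092 peaks. A gene was counted where a peak summit lay within 1 kb of an annotated start site, and 4 members met this. They were Cpr65Av, Cpr65Ay, Cpr67Fb and Cpr73D, and the 121 bases centred on each summit are shown because they are the sites on which the count rests. Coordinates are on dm6, the strand is plus, and the sequences are from RefSeq release 6. Capitals mark TAAT on either strand. The windows lie at 3L:6140313-6140433 for Cpr65Av, 3L:6157739-6157859 for Cpr65Ay, 3L:10893624-10893744 for Cpr67Fb and 3L:16956867-16956987 for Cpr73D.
Cpr65Av: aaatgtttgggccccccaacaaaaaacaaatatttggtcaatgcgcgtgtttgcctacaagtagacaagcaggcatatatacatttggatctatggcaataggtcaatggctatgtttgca
Cpr65Ay: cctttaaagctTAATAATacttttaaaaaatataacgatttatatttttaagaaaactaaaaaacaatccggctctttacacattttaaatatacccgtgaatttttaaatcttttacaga
Cpr67Fb: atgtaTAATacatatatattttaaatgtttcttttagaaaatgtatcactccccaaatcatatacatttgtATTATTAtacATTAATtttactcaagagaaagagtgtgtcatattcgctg
Cpr73D: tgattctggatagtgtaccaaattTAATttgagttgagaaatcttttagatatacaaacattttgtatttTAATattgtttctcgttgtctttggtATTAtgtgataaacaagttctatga

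The 4 windows differed in composition. The Cpr65Av window held 0 TAAT cores at 40.5% GC, and the Cpr65Ay window held 2 at 21.5% GC. The Cpr67Fb window held 5 at 24.0% GC, and the Cpr73D window held 3 at 25.6% GC. Over all IDR summits, the median was 2 cores in a window of this size, and 83.6% of windows had at least 1. None of the 4 summits had TAATTA within 100 bp, which 18.8% of all IDR summits had. None had TAAT and ATTA with 3 bases between them (the P3 word, at 3.07% of IDR summits) or with 2 bases between them (the P2 word, at 2.65%). With 4 summits, the absence of words this infrequent is uninformative. The TAAT count and its window were chosen after TAATTA had been searched for.

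At 2 of the 4 members, Cpr67Fb and Cpr65Av, the member's own start was the nearest protein-coding start to the summit. The Cpr67Fb summit lay 489 bp upstream of the start, at 3L:10893572-10893785, in an exon of the antisense transcript asRNA:CR45171. The authors' signal of the matching peak was 135 in replicate 1, 101 in replicate 2 and 104 in replicate 3, a mean of 113 ± 18.8 (SD, n = 3). Replicate 1 was the highest, and the peak ranked 3174 in the IDR list with a signal of 327, close to that list's median of 301.

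Cpr65Av had a summit 399 bp upstream of its start, at 3L:6140275-6140470, in intergenic sequence. Its signal was 106 in replicate 1, 105 in replicate 2 and 120 in replicate 3, a mean of 110 ± 8.60 (SD, n = 3). The replicates were close to each other, and the peak ranked 3236 in the IDR list with a signal of 323.

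At the other 2 members the nearest protein-coding start was another gene's. The Cpr65Ay peak, 3L:6157601-6157996, had its summit 831 bp downstream of the Cpr65Ay start, past the 3′ end of the gene and 422 bp upstream of CG13297. Its signal was 97.1, 82.7 and 73.6 in replicates 1 to 3, a mean of 84.5 ± 11.8 (SD, n = 3), the lowest of the 4. The Cpr73D peak, 3L:16956785-16957070, had its summit 762 bp inside the gene, in an intron. The summit also lay in an intron of Ogdh, 512 bp upstream of the nearest Ogdh start. Ogdh encodes a subunit of the 2-oxoglutarate dehydrogenase complex. The signal of the Cpr73D peak was 267, 280 and 146, a mean of 231 ± 73.9 (SD, n = 3), with replicate 3 well below the other 2. It was the strongest peak at a member, with a signal of 685 and a rank of 1082 in the IDR list.

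The share of members with an IDR summit within 1 kb was 5.71% (4 of 70, exact 95% interval 1.58 to 14.0%, counting error only), beside 28.9% of all protein-coding genes. Most members are short: the median gene body was 1094 bp against 2166 bp for all genes, and 52 members had a body of at most 2 kb and 1 start site. Of all genes of that kind, 17.6% had an IDR summit within 1 kb, and 3 of the 52 members did (5.77%, exact 95% interval 1.21 to 15.9%). This second background was chosen after the members were seen to be short. Replicate by replicate, among its strongest 5000 peaks, 4, 3 and 4 members had a summit within 1 kb in replicates 1, 2 and 3, where 22.3%, 22.9% and 22.9% of all genes did. The member share was 5.24% ± 0.825 (SD, n = 3). The member missing from replicate 2 was Cpr65Ay. The share of members was thus below that of all genes in the IDR list and in each replicate. Against short genes with 1 start site, 12.8%, 13.5% and 13.2% of which had such a summit in replicates 1 to 3, 3, 2 and 3 of the 52 short members had one. In the IDR list, the short members' interval of 1.21 to 15.9% ended below the 17.6% of short genes. No interval was computed for the counts of 2 or 3 among the strongest 5000 peaks. A difference from short genes at that depth was therefore not assessed.

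In the pooled list of 30000 peaks, 16 members (22.9%) had a summit within 1 kb, beside 50.6% of all genes and 36.8% of short genes with 1 start site. Of the 52 short members, 13 (25.0%, exact interval 14.0 to 38.9%) had one. This interval contains the 36.8%, so a difference of short members from short genes was not resolved in the pooled list. The full list of each replicate gave 17, 20 and 13 members, or 23.8% ± 5.02 (SD, n = 3), beside 54.4% ± 1.66 of all genes. In 9 members some summit within 1 kb was present in the pooled list and in all 3 full replicate lists, not always of the same peak. At Cpr67B and Cpr78Ca, among these, no pooled peak was matched within 100 bp in all 3 replicates. In 43 members there was no summit within 1 kb in any list. No share of all genes is given beside this count or the 9, so neither is read as particular to members.

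**Figure D1:**
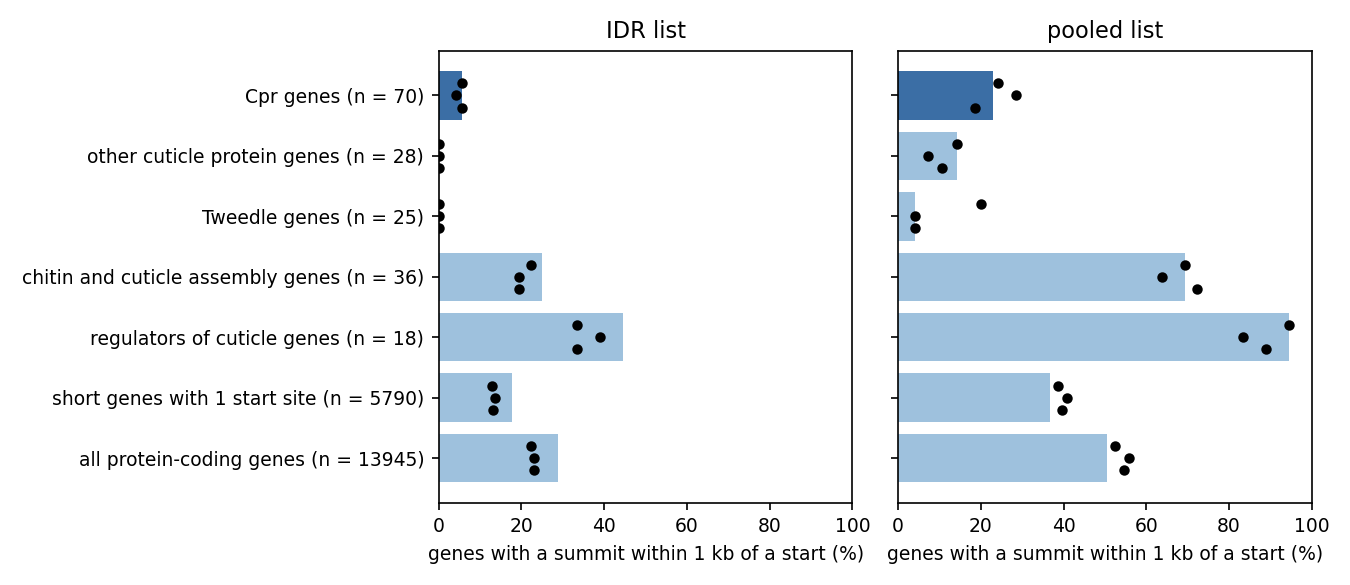
Bars give the percent of genes in each list with a summit within 1 kb of a start site, in the IDR list (left) and the pooled list (right). Points, offset vertically in the order replicate 1 to 3, give the same for each replicate's strongest 5000 peaks (left) or its full list (right). Cpr genes stood at 5.71% and 22.9%, below all protein-coding genes at 28.9% and 50.6%.

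The pooled peaks near members were weak for that list. There were 25 of them, with signals from 35.4 to 685 and a median of 56.2, against 81.2 for the whole list. Their ranks ran from 1082 to 29878, with a median of 20835. The peak of median rank, 596 bp downstream of the Cpr65Av start, had an authors' −log10 q value of 0.805. The 4 peaks of the IDR list had 4.24. Within 100 bp, 7 were matched in all 3 replicates, 5 in 2, 10 in 1 and 3 in none. No such share of the whole pooled list is given, so the matching is not read as particular to members. Of the 25 peaks, 20 had a member's start as the nearest protein-coding start. Among the members with a pooled but no IDR summit, the strongest was at Cpr65Ea, 232 bp upstream, with a pooled signal of 129. Its replicate signals were 46.3, 49.5 and 20.2, a mean of 38.7 ± 16.1 (SD, n = 3), with replicate 3 the lowest. Cpr67Fa1 followed, 510 bp upstream with a pooled signal of 104 and replicate signals of 36.7, 47.0 and 22.5, again lowest in replicate 3. Cpr78Cb had a pooled signal of 88.6, and replicate signals of 26.0, 26.3 and 14.8. Cpr72Ec (87.1) had its summit 81 bp upstream of CG4842, a nearer start than its own, and Cpr72Eb (67.9) was matched in replicate 2.

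**Figure D2:**
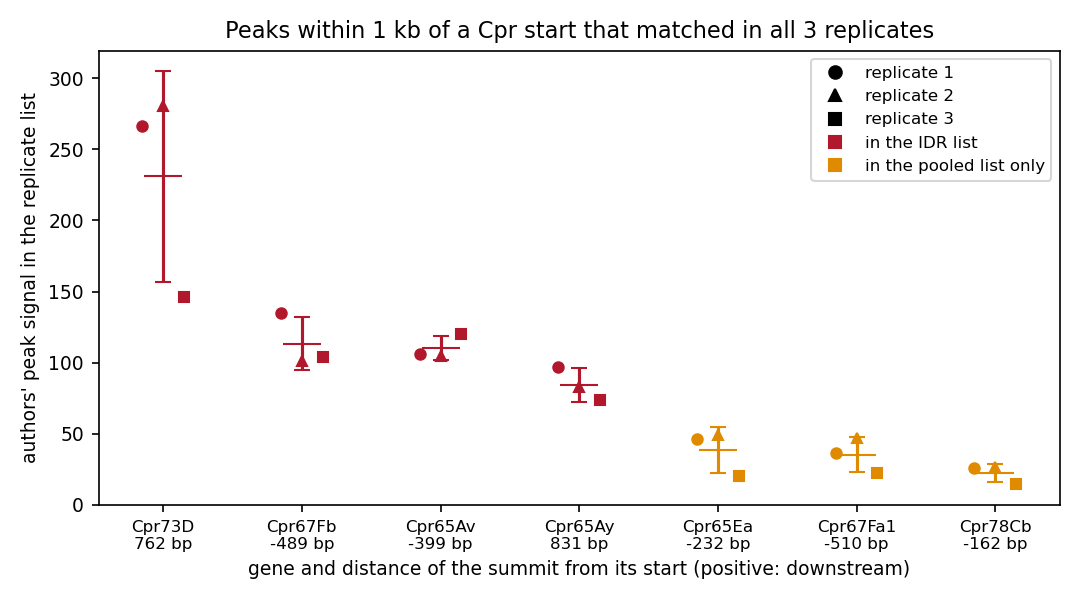
Points are the authors' peak signal (vertical axis, from 0) in each replicate list for the 7 pooled peaks within 1 kb of a member that matched in all 3 replicates; horizontal lines are means and bars are SD (n = 3). The 4 peaks of the IDR list lie above the 3 that are in the pooled list alone, and replicate 3 is the lowest in 5 of the 7. Signals were not put on a common scale between replicates. At Cpr65Ay replicate 3 had a lower signal than replicate 2 (73.6 against 82.7) but a stronger rank in its list (4761 against 5659).

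By median distance, members were also farther from summits than all genes were. The median distance from a member's start to the nearest IDR summit was 10.6 kb, beside 4.83 kb for all genes and 6.77 kb for short genes with 1 start site. An IDR summit lay within 2 kb of 8 members (11.4%), within 5 kb of 19 (27.1%), within 10 kb of 34 (48.6%) and within 20 kb of 50 (71.4%). The shares of all genes at the same limits were 35.2%, 50.7%, 66.5% and 81.6%. Pooled summits were a median of 6.59 kb from members and 0.930 kb from all genes. Between the 52 short members and short genes with 1 start site the gap was smaller. Their median IDR distances were 8.425 and 6.77 kb, and their pooled ones 4.24 and 2.61 kb. An IDR summit lay within 2 kb of 13.5% of short members and 24.7% of short genes. Within 10 kb the shares were 53.8% and 59.9%, and within 20 kb they were 78.8% and 76.7%.

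**Figure D3:**
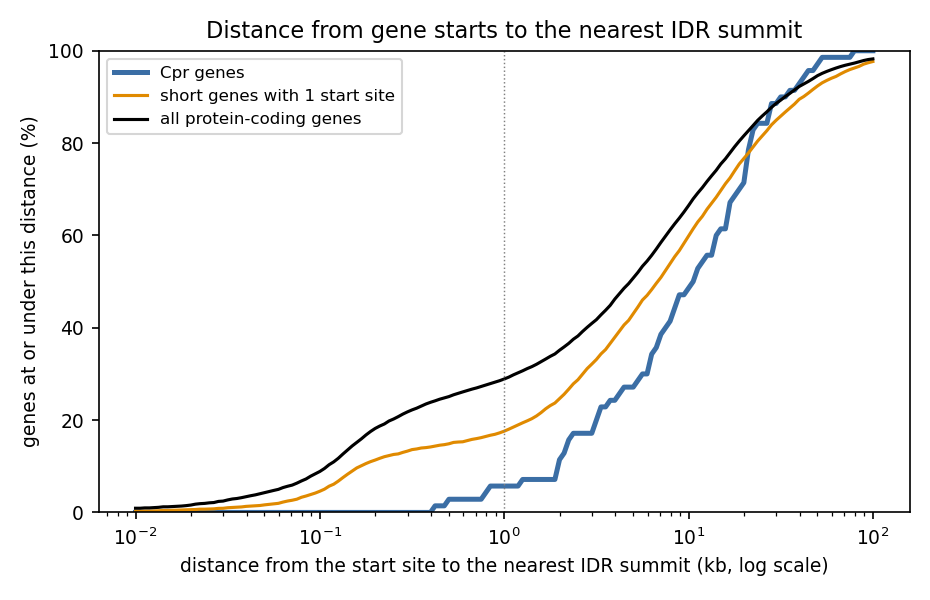
Curves give the percent of genes (vertical axis) whose nearest IDR summit lies at or under the distance on the horizontal axis (kb, log scale), for Cpr genes, short genes with 1 start site and all protein-coding genes. The Cpr curve has its median at 10.6 kb and runs below both others up to about the 20 kb mark, where 71.4% of members and 81.6% of all genes had a summit.

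By chromosome arm, members were 35 on 3L, 21 on 2R, 5 each on 2L and 3R and 4 on X. All 4 members with an IDR summit and 14 of the 16 with a pooled summit were on 3L, where 31.2% of all genes had an IDR summit and 51.7% a pooled one. The other 2 were Cpr51A and Cpr57A, on 2R. On 3L, 11.4% of members had an IDR summit (exact interval 3.20 to 26.7%) and 40% a pooled one (23.9 to 57.9%). The first interval lies below 31.2%, but the second contains 51.7%, so a pooled difference on 3L was not resolved. On 2R, 0 of 21 members had an IDR summit, beside 28.4% of all genes there. A pooled summit was present at 9.52% of these members (1.17 to 30.4%), beside 49.5%. No member on 2L, 3R or X had either, with exact upper bounds of 52.2%, 52.2% and 60.2%. Of all genes there, 27.9%, 29.4% and 27.0% had an IDR summit and 46.7%, 48.9% and 57.7% a pooled one. These shares lie below the bounds, so no difference was resolved on these arms. In the full replicate lists, Cpr35B on 2L had a summit within 1 kb in replicate 1, and Cpr11A on X in replicate 2.

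Members fell into 10 clusters of at least 3 genes with gaps of at most 20 kb between gene bodies. The clusters held 45 members in 169 kb, and 25 members lay outside them. Inside the clusters there were 5 IDR summits, in 4 clusters, or 0.295 per 10 kb. The 10 kb on either side held 8, or 0.400 per 10 kb, and the chromosome arms as a whole held 0.530 per 10 kb. Over the replicates' strongest 5000 peaks, densities were 0.236 ± 0.0590 inside and 0.283 ± 0.104 in the flanks (SD, n = 3), beside 0.373 on the arms. In these peaks the flanks were above the interiors in replicates 2 and 3 and below them in replicate 1. With IDR peaks required in the other 2 replicates alone, the flank density was 0.25 without replicate 1, 0.2 without replicate 2 and 0.15 without replicate 3, in lists shortened to about 5000 peaks. In the full lists, which include weaker peaks, the flanks were denser than the interiors in every replicate: 1.53 per 10 kb inside against 2.35 in the flanks in replicate 1, 1.59 against 2.50 in replicate 2 and 1.30 against 2.45 in replicate 3. Pooled summits likewise stood at 1.53 per 10 kb inside, 2.80 in the flanks and 2.24 on the arms.

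Of the 5 IDR summits inside clusters, 3 were nearest to a member's start. In the cluster Cpr65Au to Cpr65Az, which also holds Lcp65A genes and Acp65Aa, cuticle protein genes with other names, the 2 were those at Cpr65Av and Cpr65Ay, among 12 pooled summits. In Cpr65Ea to Cpr65Ec the IDR summit lay 2199 bp upstream of Cpr65Eb, with a signal of 226 and a replicate mean of 74.2 ± 7.07 (SD, n = 3), and the cluster held 5 pooled summits. In Cpr67Fa1 to Cpr67Fb it was the Cpr67Fb peak. In Cpr47Ea to Cpr47Eg it lay 610 bp upstream of TpnC47D, a troponin C gene of muscle that sits among the members, with a signal of 309 and a replicate mean of 97.8 ± 42.9 (SD, n = 3).

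The other 6 clusters had no IDR summit inside. Cpr72Ea to Cpr72Ec had 1 pooled summit and Cpr78Ca to Cpr78Cc had 4. In Cpr49Aa to Cpr49Ah, Cpr62Ba to Cpr62Bc, Cpr64Aa to Cpr64Ad and Cpr76Ba to Cpr76Bd there was no pooled summit either, over 19 members and 85.8 kb. The full list of replicate 1 had 1 summit in Cpr49Aa to Cpr49Ah and 2 in Cpr62Ba to Cpr62Bc, and that of replicate 3 had 1 in Cpr49Aa to Cpr49Ah, so these 2 clusters were not empty in every list. The summit-free span around Cpr49Aa to Cpr49Ah was 98.1 kb in the IDR list and 91.7 kb in the pooled list. Around Cpr62Ba to Cpr62Bc it was 48.2 and 37.2 kb, around Cpr64Aa to Cpr64Ad 51.2 and 49.9 kb, and around Cpr76Ba to Cpr76Bd 62.8 and 52.9 kb. Long spans are common: 37.1% of members lay in an IDR-free span of at least 50 kb, beside 34.0% of all genes and 41.0% of short genes. At 30 kb the shares were 62.9% of members and 47.6% of all genes. Both limits were chosen after the spans were seen, and the first does not set the members apart.

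**Figure D4:**
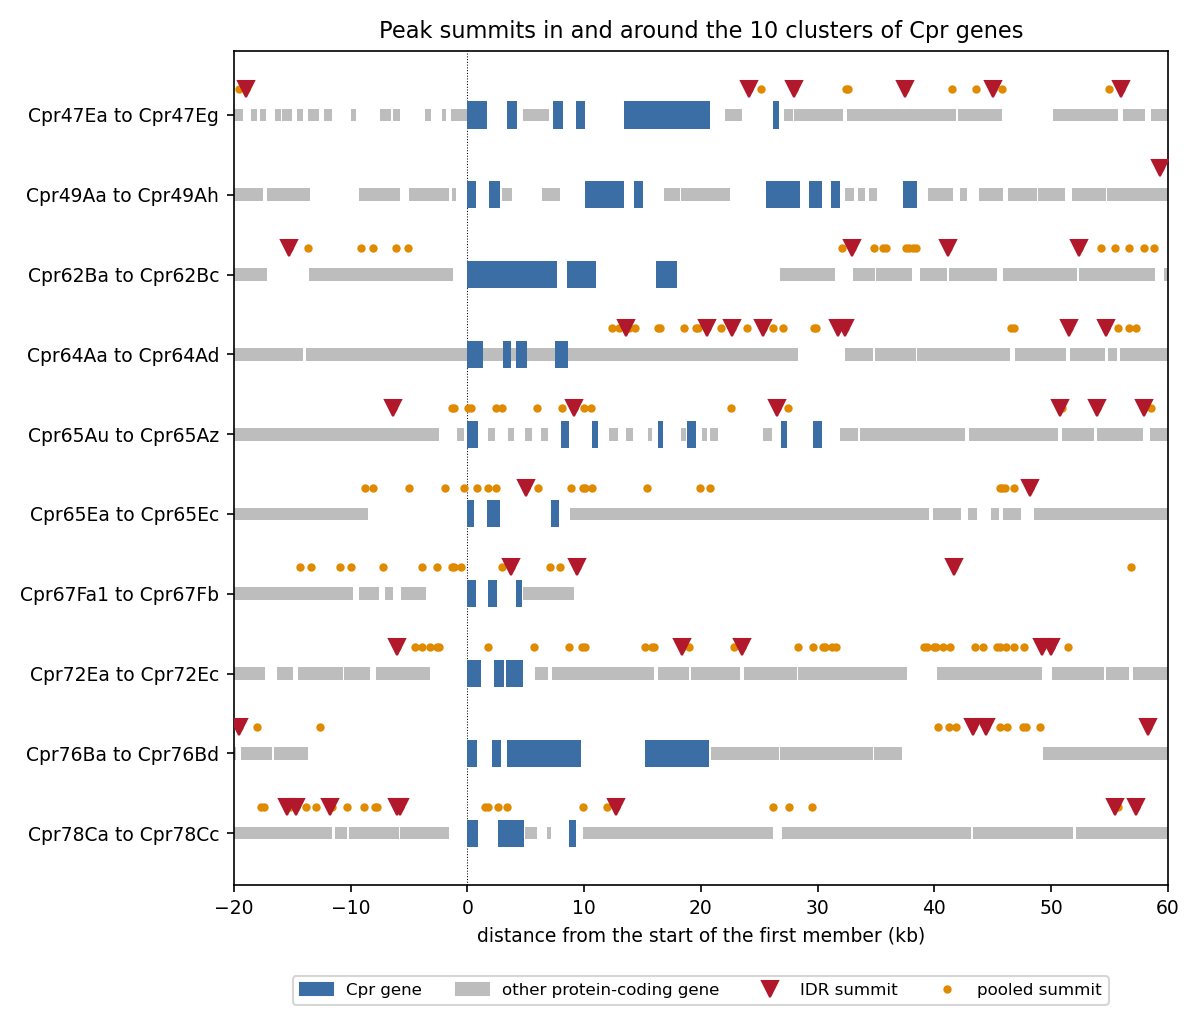
Each row is a cluster, drawn to scale from the start of its first member (horizontal axis, kb). Bars are genes, triangles are IDR summits and dots are pooled summits. The clusters Cpr49Aa to Cpr49Ah, Cpr62Ba to Cpr62Bc, Cpr64Aa to Cpr64Ad and Cpr76Ba to Cpr76Bd have no summit of either list among their members.

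Of the 20 cluster ends, 7 had an IDR summit within 10 kb outward and 12 had a pooled one. Of all ends of protein-coding genes, 46.6% had an IDR summit and 65.0% a pooled one within the same distance outward, a background added after the cluster counts were seen. Cpr78Ca to Cpr78Cc had an IDR summit on both sides, 5 clusters had one on 1 side and 4 on neither, and without replicate 3 no cluster had one on both sides. The distance from a cluster end to the first IDR summit outside ran from 1.25 to 72.3 kb with a median of 17.1 kb. None of these 20 summits was nearest to a member's start, and 15 (75%) were within 1 kb of a protein-coding start, beside 51.4% of all IDR summits.

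The strongest of these outer summits was 3.40 kb beyond Cpr78Cc, 86 bp downstream of the CG11309 start. It had a signal of 5115, ranked 8 in the IDR list, and had a replicate mean of 1708 ± 551 (SD, n = 3). On the other side of that cluster the summit lay 54 bp upstream of pzg, which encodes a chromatin-associated protein. Beyond Cpr49Ah, at 20.8 kb, a summit with a signal of 1632 lay in an intron of DUBAI, 89 bp upstream of the nearest DUBAI start. DUBAI encodes a deubiquitinating enzyme. On the other side of the cluster the nearest start was Den1. Beyond Cpr47Eg, at 1.25 kb, a summit lay 14 bp upstream of CG9067, and metro was nearest on the other side. Around Cpr65Ea to Cpr65Ec the first summits were 72.3 kb away near Mp, a collagen gene, and 40.4 kb away near melt. Around Cpr67Fa1 to Cpr67Fb the nearest starts were tna and Aps, around Cpr72Ea to Cpr72Ec ringer and Agpat4, and around Cpr65Au to Cpr65Az l(3)mbn and CG10274. The remaining ones were GV1 and CG12024 for Cpr62Ba to Cpr62Bc, Ero1L and ImpL2 for Cpr64Aa to Cpr64Ad, and CG9449 and CG9300 for Cpr76Ba to Cpr76Bd.

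Genes that share the clusters gave a local comparison. Of 22 other protein-coding genes that start inside a cluster, 11 are cuticle protein genes with other names, of which 0 had an IDR summit within 1 kb and 3 a pooled one. Of the 11 that are not, 2 had an IDR summit (CG13297 and TpnC47D, 18.2%) and 2 a pooled one, and the CG13297 summit is the one counted for Cpr65Ay. Of 40 that start within 10 kb outside, 8 (20%) had an IDR summit and 18 (45%) a pooled one, while 3 of the 45 clustered members had an IDR summit and 12 a pooled one.

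Outside the clusters, Cpr73D was the member nearest to an IDR summit. Cpr57A (1887 bp upstream), Cpr100A (1929 bp upstream), Cpr66Cb (2317 bp downstream) and Cpr51A (3034 bp upstream) followed. Cpr92F, at 75.1 kb, Cpr50Ca, at 52.5 kb, and Cpr50Cb, at 27.7 kb, were the farthest.

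Repeated sequence touched few members. The reads' placement was examined through 50-base words within 1 kb of each start, and 66 members had none that recurred in the genome. This check was added after the peaks at members had been seen. In Cpr65Ax1 and Cpr65Ax2, 61.5% and 61.6% of words recurred, so absent peaks there are uncertain, since how reads with several placements were handled is not given in the sources used here. Cpr67Fa1 and Cpr67Fa2 had 0.922% each.

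Promoters of members, taken as 250 bases before to 50 after the start, differed from those of all genes in core elements. TATAAA, the TATA box, was in 70.0% of members on either strand, beside 45.8% of all genes and 52.3% of short genes with 1 start site. TATCGATA, the DNA replication-related element, was in 1.43% of members and 9.36% of all genes, and GGTCACAC, known as Motif 1, was in 0 of 70 members and 7.70% of all genes. The last share falls to 4.21% with the 250 bases before the start alone, which lies within the exact 95% interval of 0 of 70 (up to 5.13%). Between short members and short genes with 1 start site, a difference was not resolved for either word. In the full window 7.58% of these short genes had TATCGATA, beside 1 of 52 short members (exact 95% interval 0.0487 to 10.3%). GGTCACAC was in 5.99% of them and in 0 of 52 short members (up to 6.85%). With the 250 bases before the start alone, the short-gene shares were 6.32% and 3.07%. Each word was then in 0 of 52 short members (up to 6.85%). TAATTA was in 14.3% of members and 20.4% of all genes, P3 in 2.86% and 3.11%, and P2 in 0 of 70 and 2.90%. A match is a description of letters and not of a bound site.

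Placed at 45 to 20 bases before the start on the gene's strand, TATAAA was in 39 members (55.7%), beside 8.81% of all genes, 14.4% of short genes, 75% of 28 other cuticle protein genes and 60% of 25 Tweedle genes. The 60 bases before the start of Cpr65Av are shown with those of Cpr62Bc, Cpr64Aa and Cpr76Ba, 3 members in clusters with no pooled summit, each on the gene's own strand, which is minus, and with TATAAA in capitals. The last 3 are the first members in their clusters with the word at that place, and were chosen for it. They lie at 3L:6139975-6140034, 3L:1842085-1842144, 3L:4209179-4209238 and 3L:19518333-19518392 on dm6.
Cpr65Av: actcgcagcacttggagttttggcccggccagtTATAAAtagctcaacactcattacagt
Cpr62Bc: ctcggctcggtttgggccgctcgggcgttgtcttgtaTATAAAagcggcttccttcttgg
Cpr64Aa: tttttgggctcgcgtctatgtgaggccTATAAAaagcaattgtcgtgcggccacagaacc
Cpr76Ba: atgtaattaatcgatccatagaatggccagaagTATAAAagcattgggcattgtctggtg

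In these 4 the first base of TATAAA was at -27, -23, -33 and -27 from the start. Whether genes with the word were counted less often was asked in 2 ways, both after the word shares were seen. Over the whole promoter window there was no difference among all genes: 28.8% with TATAAA and 29.0% without it had an IDR summit within 1 kb. Among members, 2 of 49 (4.08%) and 2 of 21 (9.52%) had one, too few to show a difference or its absence. The window was then narrowed to 45 to 20 bases before the start, where 12.0% of genes with the word and 30.5% of genes without it had a summit, and 1 of 39 and 3 of 31 members. The narrower split was chosen after the wider had shown nothing over all genes. It is thus a description of this choice of window and not independent support. Members with the word at that place stood at 2.56%, with an exact interval of 0.0649 to 13.5% that contains the 12.0%. Members without it stood at 9.68%, with an exact interval of 2.04 to 25.8% that lies below the 30.5%. Whether the word accounts for the low share of members was not tested.

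Other genes of the cuticle were counted in the same way. None of 28 other cuticle protein genes and none of 25 Tweedle genes, which encode a further family of cuticle proteins, had an IDR summit within 1 kb, and 4 and 1 had a pooled one. These zeros allow shares of up to 12.3% and 13.7% (exact 95% upper bounds). Of 36 genes of chitin and cuticle assembly, 9 had an IDR summit (25.0%) and 25 a pooled one. The strongest peak was 187 bp upstream of Cht7, of the chitinase family, with a replicate mean of 307 ± 36.8 (SD, n = 3). The next, with 184 ± 41.6, was in an intron of Idgf6, a chitinase-like growth factor gene, 270 bp upstream of its nearest start. Of 18 regulators of cuticle genes, 8 had an IDR summit (44.4%) and 17 a pooled one. The strongest peak was 38 bp downstream of a start of Eip75B, an ecdysone-induced nuclear receptor gene, with 485 ± 60.1 (SD, n = 3). The next, with 413 ± 78.6, was in an intron of vri, a bZIP factor gene, 208 bp upstream of its nearest start. The exact 95% intervals of the assembly list (12.1 to 42.2%) and of the regulators (21.5 to 69.2%) both contain the background of 28.9%, and those of the members and of the first 2 lists lie below it. Gene length and the number of start sites, which differ between these lists, move with this order, and their part in it was not tested.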

How the data were processed

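Peak lists of 3 replicates of anti-GFP ChIP-seq in whole embryos were used as deposited. Per the file headers and accompanying notes, the authors derived each replicate list from its alignment and 1 shared control, a pooled list from all 3 alignments with the same control, and the IDR list from these lists, on dm6. The tools for alignment and peak calling were not given in the sources used here. Peak signal and −log10 q values are the authors' own, as deposited. Signal served for description and for ranks inside each list, and −log10 q values, whose lowest is 0.348 in the pooled list and 4.24 in the IDR list, were not used for ranking. Each replicate and the pooled list held 30000 peaks, and 5 mitochondrial peaks were left out. The depth is unknown, and intervals (exact binomial, 95%) cover counting error only.

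Summits were compared with Ensembl release 115 start sites. All 70 members matched RefSeq by symbol, with the same start and end. Clusters, flanks of 10 kb and matches within 100 bp were defined as in the text. Replicate shares and densities use the strongest 5000 peaks unless stated. Replicate signals of single peaks, and their matches, were taken from the full list of each replicate. These signals were not rescaled between replicates, so their means and SDs also hold any difference in scale between lists. There is 1 group, so no test between groups was possible and none was run. The genes named were those with an IDR summit within 1 kb, the clusters, the nearest 5 and farthest 3 unclustered members, the 5 members with the strongest pooled peaks without an IDR peak, the genes nearest to summits inside or first outside clusters, and 2 genes of each other list. The members and lists were chosen with earlier results of these data known. The calculations were checked on simulated peaks. Alternatives were other distance limits, peak sets, cluster definitions, flanks and promoter windows, and leaving out each replicate. Python 3.11.15, numpy 2.4.6, scipy 1.17.1, pandas 2.3.3 and matplotlib 3.10.9 were used.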

Additional observations from a re-analysis of the deposited data

How the results depend on the processing

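The count of 4 members with an IDR summit moved with the rule that links peaks to genes. It was 2 at a limit of 500 bp, 8 at 2 kb, 0 where the peak had to cover the start, 16 in the pooled list and 2 where the member had to be the nearest protein-coding start, and it was 4 without each replicate in turn. Summits inside clusters (0.295 per 10 kb) became 0.235 with clusters of 2 or more members, 1.53 in the pooled list and 0.177 in the stronger 3546 IDR peaks, and ran from 0.236 to 0.295 without each replicate. Flank density (0.400) became 2.80 in the pooled list, 0.15 in those stronger peaks and 0.55 with flanks of 20 kb, and was 0.25, 0.2 and 0.15 without replicates 1, 2 and 3. It fell below the density inside clusters in those stronger peaks, without replicate 2 and without replicate 3. Leaving out a replicate shortens the IDR list to 5095, 4999 and 5039 of 7092 peaks by its construction. Clusters with summits on both sides (1) became 4 in the pooled list, 0 with flanks of 5 kb and 4 with flanks of 20 kb, and ran from 0 to 1 without each replicate. TATCGATA was in 0% of members with 250 bases before the start alone, and GGTCACAC in 4.21% of all genes instead of 7.70%. The background of 28.9% became 17.6% in short genes with 1 start site, 28.8% in genes with TATAAA in the promoter window and 12.0% in genes with it 45 to 20 bases before the start, all chosen after seeing the data. The number of clusters with an IDR summit inside stayed within 1.5 times 4 under all 8 alternatives. No paired analysis was possible because there is 1 group. Unknown depth and the lack of untagged embryos limit what an absent or present peak means.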
